A study of Mus musculus with 4 samples.

Results

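Adipocyte nuclei of inguinal white adipose tissue (iWAT) were compared between mice given the β3-adrenergic agonist CL-316,243 (CL) for 7 days and mice at day 0. The members were every nucleus that the deposited annotation placed in its Adipocyte (white) or Beige cluster in these 2 groups. They numbered 1795 of the 7004 adipocyte nuclei and of the 32552 nuclei of all cell types in the series. The day7CL group held 1158 of them, 921 white and 237 beige, and the day0RT group held 637, of which 579 were white and 58 beige.

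Open chromatin was measured by single-nucleus ATAC-seq with combinatorial barcodes in 21 mice, 3 in each of 7 groups, all 8-week-old male C57BL/6 mice. The day0RT mice were kept at room temperature (22 °C) and taken at day 0, before any treatment, and no group given vehicle is named. The day7CL mice received CL at 1 mg/kg for 7 days, also at room temperature, and the day3CL mice, used below for 1 comparison, received it for 3 days. The day1CL mice received it for 1 day. The day7C mice were kept at 6.5 °C for 7 days, and the day1C and day3C mice for 1 and 3 days. No transgene or deletion is named for any group. The nuclei of a mouse came from minced whole fat pads, and the floating fat layer was discarded during their isolation.

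The deposited matrix holds only 0 and 1, so a count is 1 nucleus with reads in 1 peak. Counts were summed over the adipocyte nuclei of a mouse, and the mouse was the replicate. Each gene was given the summed counts of all peaks in its body and up to 2000 bases upstream, expressed per 1000000 counts of the mouse (CPM) after TMM scaling. The test was edgeR's quasi-likelihood test, two-sided, with Benjamini-Hochberg adjustment over all features tested. A gene or peak was called at an adjusted p under 0.05, and log2 fold changes are day7CL over day0RT throughout.

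The 3 day7CL mice contributed 484, 317 and 357 adipocyte nuclei and the 3 day0RT mice 196, 156 and 285. The first day7CL mouse stood apart in depth, with a median of 6685.5 counts per nucleus against 3243 and 1932 in the other two and 1330.5 to 2697 in the day0RT mice. Its adipocytes held 3863696 of the counts, against 358239 to 1239082 in each of the other 5 mice, so results that rest on it are also given without it. Barcodes also differed between the groups: all 12 sequences of the second barcode segment in day7CL were absent from day0RT, so this index set and the treatment cannot be told apart. Of the day7CL barcodes, 759 also occurred in day1CL mice and 770 in day3CL mice, 32 and 71 of them in adipocytes of both groups. No day7CL barcode occurred in a day0RT or day7C mouse.

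The study had named the clusters partly from marker genes in these same nuclei, so marker levels are no independent check of the label. The label was set beside 10 adipocyte markers (Adipoq, Plin1, Pparg, Lipe, Cidec, Fabp4, Lpl, Pnpla2, Cidea and Plin4). Their summed accessibility was 2884 CPM in the Adipocyte cluster and 2699 CPM in the Beige cluster over all mice, and at most 1196 CPM in any other cluster. Within the nuclei compared here it ranged from 2946 to 3565 CPM in day0RT and from 2490 to 3137 CPM in day7CL mice. Taken singly, 8 of the 10 markers were called, 6 lower and 2 higher in day7CL, against 7.81% of all tested genes. Without the first day7CL mouse, 2 of these 8 calls remained. Markers of other cells were present at lower levels. B cell markers summed to 162 to 254 CPM in day0RT and 212 to 247 CPM in day7CL, against 2352 CPM in the B cell cluster. Macrophage markers summed to 174 to 235 and 192 to 243 CPM, against 799 CPM in the macrophage cluster, and endothelial markers to 246 to 325 and 267 to 280 CPM, against 1558 CPM in the vascular endothelial cluster. Markers of mural and smooth muscle cells summed to 310 to 337 and 330 to 360 CPM. This is above the 255 CPM of the vascular smooth muscle cluster but below the 964 CPM of the progenitor cluster APC2, the highest of any cluster. Of 10 lists for other cells, 2 did not overlap between the groups. Of all tested genes, taken singly, 12.3% had every day7CL mouse above and 10.5% every day7CL mouse below the day0RT mice. The 8 dendritic cell markers, Flt3, Ciita and Ccr7 among them, had 126 to 145 CPM in day0RT and 165 to 183 CPM in day7CL, and the 4 of 6 epithelial markers with a peak had 31.2 to 34.8 and 23.5 to 25.9 CPM. Of these 2 lists, 5 dendritic cell and 2 epithelial markers had enough counts to be tested, and none of them was called. No member with a peak was at 0 in all 6 mice. Of the remaining lists for other cells, the macrophage gene Mrc1 (log2 fold change 0.85, adjusted p = 0.0129) and the smooth muscle gene Myh11 (0.58, adjusted p = 0.0195) were called. For Mrc1 the adjusted p was 0.0785 to 0.226 without the first or the third day0RT or the first day7CL mouse, and for Myh11 it was 0.0720 to 0.199 without the first or the third day0RT or the first day7CL mouse. The part of other cells in the results below was not tested.

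CL binds the β3-adrenergic receptor of adipocytes, which raises cyclic AMP through adenylyl cyclases and activates protein kinase A. The kinase acts on perilipin and lipases, so that fatty acids are released from the lipid droplet, and on transcription factors and coactivators of the heat-producing programme. In iWAT such stimulation is known to induce beige adipocytes, which burn fatty acids and glucose through uncoupling protein 1. Lipogenic enzymes, which rebuild fatty acids from glucose carbon, are also known to rise during sustained stimulation.

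The elements on which the results turn are shown here, so that the values below can be read beside their sequence. Each is the central 300 bases of a called peak that overlaps no exon, read on the + strand of GRCm38. Capitals mark matches on either strand to 6 of the letter strings counted further on. TTGCNNAA is bound by factors of the C/EBP family. Factors of the NFI family bind TTGGCA. Many nuclear receptors bind AGGTCA, and the NBRE, spelled AAAGGTCA, contains that string. The E-box searched is the palindrome CACGTG, which matches both strands. The string for the glucocorticoid receptor is AGAACA. The first 3 sequences were more open in day7CL and belong to genes of lipogenesis and adipogenesis: an intron of Acly, an intron of Pparg and a region downstream of Tkt. The next 4 are the single peaks with the largest rise. The last 5 were less open: an intron of Adipoq, a region downstream of Adipoq, and 3 of the 4 single peaks with the largest fall, 1 of them in an intron of Adcy5. Sites between genes carry the name of the nearest gene start, and sites in an intron that of the gene.
Acly intron, chr11:100505479-100505778: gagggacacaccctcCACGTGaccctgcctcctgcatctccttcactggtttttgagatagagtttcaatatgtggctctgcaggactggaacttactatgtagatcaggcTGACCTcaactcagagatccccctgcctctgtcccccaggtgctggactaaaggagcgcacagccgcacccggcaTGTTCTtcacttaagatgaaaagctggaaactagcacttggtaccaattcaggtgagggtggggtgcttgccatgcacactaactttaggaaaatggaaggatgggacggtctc
Pparg intron, chr6:115444788-115445087: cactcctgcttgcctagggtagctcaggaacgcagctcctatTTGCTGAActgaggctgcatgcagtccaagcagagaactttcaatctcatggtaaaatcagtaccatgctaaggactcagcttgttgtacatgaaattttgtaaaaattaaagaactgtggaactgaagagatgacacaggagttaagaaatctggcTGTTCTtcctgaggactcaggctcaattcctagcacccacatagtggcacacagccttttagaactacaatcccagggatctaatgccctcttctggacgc
Tkt downstream, chr14:30579450-30579749: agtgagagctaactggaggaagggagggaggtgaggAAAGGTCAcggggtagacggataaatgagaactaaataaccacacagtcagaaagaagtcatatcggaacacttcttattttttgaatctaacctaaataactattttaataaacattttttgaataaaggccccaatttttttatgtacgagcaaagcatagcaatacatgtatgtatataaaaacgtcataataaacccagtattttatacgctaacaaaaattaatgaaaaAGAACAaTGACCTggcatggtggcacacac
near Fxr1, chr3:34014679-34014978: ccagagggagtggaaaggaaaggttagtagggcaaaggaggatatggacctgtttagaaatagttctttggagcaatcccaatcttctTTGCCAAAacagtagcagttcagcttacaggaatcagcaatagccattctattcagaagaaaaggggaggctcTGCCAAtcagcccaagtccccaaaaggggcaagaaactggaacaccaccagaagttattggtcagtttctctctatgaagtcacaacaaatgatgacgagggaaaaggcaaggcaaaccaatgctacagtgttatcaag
near Nfkbiz, chr16:55664061-55664360: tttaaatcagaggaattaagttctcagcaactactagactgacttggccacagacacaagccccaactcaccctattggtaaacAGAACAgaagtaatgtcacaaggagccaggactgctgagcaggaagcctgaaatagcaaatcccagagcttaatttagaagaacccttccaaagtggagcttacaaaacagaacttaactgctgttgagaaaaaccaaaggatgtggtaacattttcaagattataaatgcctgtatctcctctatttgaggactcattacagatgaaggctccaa
Thg1l intron, chr11:45951859-45952158: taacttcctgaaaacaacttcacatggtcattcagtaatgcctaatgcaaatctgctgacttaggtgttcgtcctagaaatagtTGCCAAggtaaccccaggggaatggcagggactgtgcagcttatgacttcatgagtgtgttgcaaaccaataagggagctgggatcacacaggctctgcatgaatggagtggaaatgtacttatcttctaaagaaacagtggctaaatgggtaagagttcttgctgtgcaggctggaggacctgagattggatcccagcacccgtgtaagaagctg
Pde1b intron, chr15:103522732-103523031: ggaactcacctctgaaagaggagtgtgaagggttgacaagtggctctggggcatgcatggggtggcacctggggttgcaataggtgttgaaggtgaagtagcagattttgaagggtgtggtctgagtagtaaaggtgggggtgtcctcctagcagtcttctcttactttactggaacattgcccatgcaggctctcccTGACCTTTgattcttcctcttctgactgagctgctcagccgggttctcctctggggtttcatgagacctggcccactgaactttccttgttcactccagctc
Adipoq intron, chr16:23149042-23149341: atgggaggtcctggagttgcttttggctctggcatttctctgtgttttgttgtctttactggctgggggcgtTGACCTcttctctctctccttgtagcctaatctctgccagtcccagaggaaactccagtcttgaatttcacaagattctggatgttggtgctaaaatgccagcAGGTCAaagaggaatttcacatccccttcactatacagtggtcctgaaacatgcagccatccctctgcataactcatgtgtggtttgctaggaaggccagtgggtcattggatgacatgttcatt
Adipoq downstream, chr16:23159883-23160182: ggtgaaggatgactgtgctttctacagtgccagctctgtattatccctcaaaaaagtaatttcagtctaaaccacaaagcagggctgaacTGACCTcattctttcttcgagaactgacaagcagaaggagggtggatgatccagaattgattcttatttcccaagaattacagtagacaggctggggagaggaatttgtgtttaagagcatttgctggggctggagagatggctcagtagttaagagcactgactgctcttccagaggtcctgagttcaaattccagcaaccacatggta
Scara5 intron, chr14:65736050-65736349: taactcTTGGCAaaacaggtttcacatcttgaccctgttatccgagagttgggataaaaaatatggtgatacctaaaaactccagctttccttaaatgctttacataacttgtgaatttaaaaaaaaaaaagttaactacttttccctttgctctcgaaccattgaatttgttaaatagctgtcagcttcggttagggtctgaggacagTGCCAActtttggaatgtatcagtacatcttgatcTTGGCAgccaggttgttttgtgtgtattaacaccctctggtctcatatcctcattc
Adcy5 intron, chr16:35157477-35157776: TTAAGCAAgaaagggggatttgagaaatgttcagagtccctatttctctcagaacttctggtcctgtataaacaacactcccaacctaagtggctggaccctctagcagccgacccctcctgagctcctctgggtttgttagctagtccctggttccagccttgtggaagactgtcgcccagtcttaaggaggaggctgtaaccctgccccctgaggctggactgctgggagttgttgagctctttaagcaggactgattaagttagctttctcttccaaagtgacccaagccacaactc
Celsr2 intron, chr3:108408583-108408882: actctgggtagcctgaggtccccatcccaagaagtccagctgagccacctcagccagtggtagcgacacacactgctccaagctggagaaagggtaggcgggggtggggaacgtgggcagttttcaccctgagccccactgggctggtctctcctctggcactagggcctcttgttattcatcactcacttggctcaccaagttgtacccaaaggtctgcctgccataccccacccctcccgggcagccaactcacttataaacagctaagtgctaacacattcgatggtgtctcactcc

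The share of beige nuclei among adipocytes was higher after CL. It was 12.2%, 7.69% and 7.72% in the day0RT mice and 22.1%, 14.5% and 23.5% in the day7CL mice, and the groups did not overlap. The means were 9.22% ± 2.62 and 20.0% ± 4.85 (SD, n = 3 each), a difference of 10.8 percentage points. The exact permutation test, two-sided, gave p = 0.1, which is the smallest value that 3 mice against 3 allow. Adipocytes made up 10.9%, 10.9% and 17.4% of all nuclei in day0RT and 23.9%, 18.2% and 26.7% in day7CL (exact permutation p = 0.1, again the smallest possible). Sums over both clusters therefore hold more beige nuclei after CL, and the counts over all genes and peaks are also given for Adipocyte nuclei alone.

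Over all genes, 669 were more accessible and 458 less accessible after 7 days of CL, 4.64% and 3.17% of the 14429 genes tested. With Adipocyte nuclei only, 536 of 13508 genes rose (3.97%) and 375 fell (2.78%), and all 1105 of the called genes that could be tested there kept their direction. The calls leaned on the deepest mouse: without the first day7CL mouse 166 genes rose and 84 fell. Without the first, the second or the third day0RT mouse, 637, 686 and 580 genes were called. Without the first day7CL mouse, 245 of the 1127 calls remained, and 1125 of 1125 called genes had the same sign. Nuclei limited to 1000 to 4000 counts, a range added after the depth was seen, called 77 genes, and 990 of 995 called genes kept their sign. The median log2 fold change of the higher genes was 0.68 over all nuclei and 0.61 in that range, and that of the lower genes was −0.60 and −0.58. Depth was not matched within that range. The median counts per nucleus there were 1840, 1707.5 and 2359 in the day0RT mice and 2895.5, 2480.5 and 2169 in the day7CL mice. In each of these fits the called genes had been chosen from data that held the same nuclei. Agreement of sign was therefore largely set in advance.

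**Figure D1:**
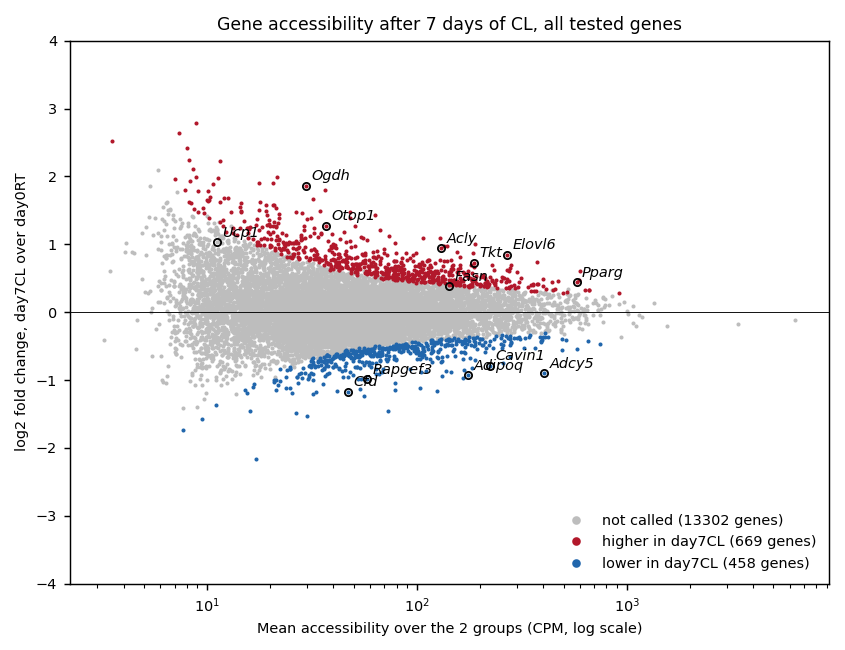
Log2 fold change of each of the 14429 tested genes (y axis) against its mean accessibility in CPM on a log axis (x axis). Red points are the 669 genes higher in day7CL, blue points the 458 genes lower, and grey points were not called; named genes carry a ring.

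Genes of white adipocyte identity and secretion fell where they were called. Of 23 tested genes of the list of adipokines and white-enriched genes, 7 fell and none rose, where 3.17% of all tested genes fell and 7.81% were called in either direction, and the median log2 fold change was −0.41 against −0.01 over all genes. Med16, Nnat, Car3, Fads3, Lrp3, Tenm4 and Cmklr1 were put on this list because the study named them from these nuclei, so its direction is not independent evidence. Adipoq, which encodes adiponectin, had 265, 204 and 204 CPM in the day0RT mice and 104, 110.0 and 164 CPM in the day7CL mice. Every day7CL mouse lay below every day0RT mouse (log2 fold change −0.92, standard error 0.14, adjusted p = 1.9e-06). Such a gap, with all 3 mice below, occurred in 10.5% of all tested genes. Cfd, which encodes the serine protease adipsin, had 76.0, 64.6 and 52.7 CPM and then 23.9, 36.0 and 29.6 CPM (log2 fold change −1.17, standard error 0.20, adjusted p = 2.8e-05). Nnat, which encodes the membrane proteolipid neuronatin, fell from 76.0, 82.5 and 68.0 CPM to 24.3, 44.4 and 40.5 CPM (log2 fold change −1.23, standard error 0.21, adjusted p = 2.1e-05), but its adjusted p was 0.0568 without the first day7CL mouse.

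Fads3, a member of the fatty acid desaturase family, and Med16, a Mediator subunit next to Cfd on chromosome 10, fell by 0.69 and 0.94 on the log2 scale. The calls of Adipoq, Cfd, Fads3 and Med16 held without each of the 6 mice in turn. Lrp3 fell by 0.73, and its adjusted p was 0.117 without the first day7CL mouse. Sncg had a log2 fold change of −0.47 with an adjusted p of 0.0499, and its adjusted p was 0.0581 to 0.199 without any 1 of the 6 mice. Lep, the gene of leptin, was not called (log2 fold change 0.17, standard error 0.14, adjusted p = 0.521).

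**Figure D2:**
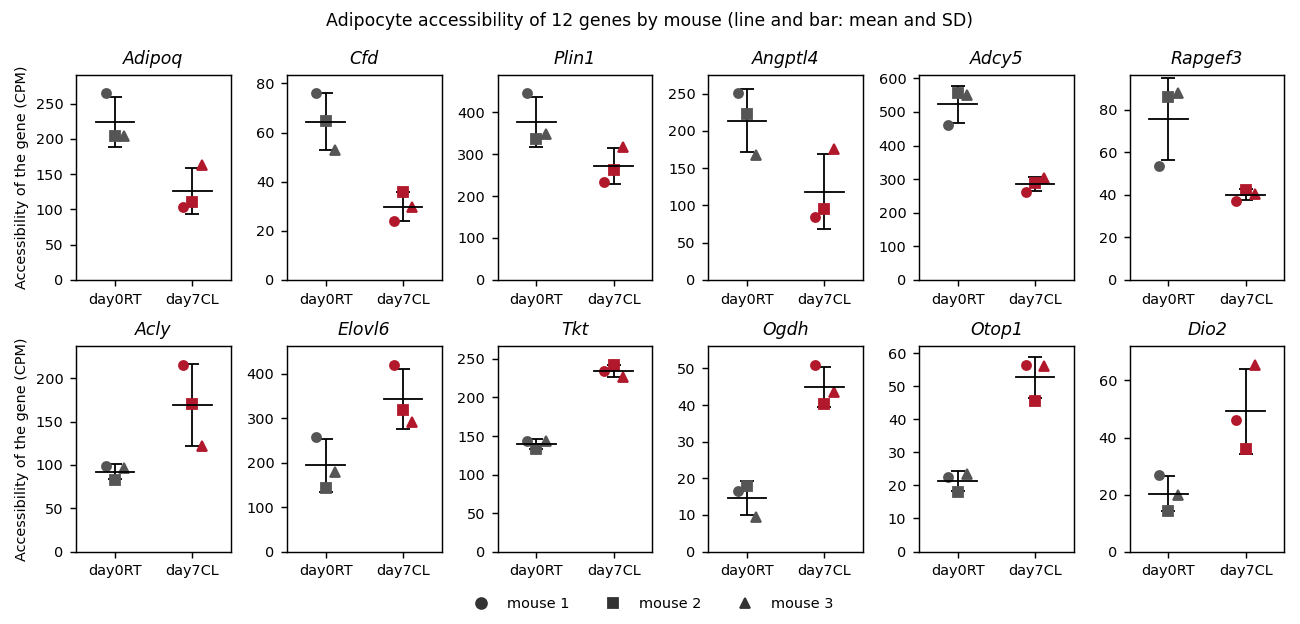
Accessibility in CPM (y axis) of 12 genes in the adipocytes of the 3 day0RT mice and the 3 day7CL mice, with the mean as a line and the SD as a bar. In 11 of the 12 panels the 2 groups do not overlap, and in Angptl4 the third day7CL mouse (176 CPM) lies above the third day0RT mouse (168 CPM). The 12 genes were chosen for display among called genes. Of all tested genes, 12.3% had every day7CL mouse above and 10.5% every day7CL mouse below the day0RT mice.

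Called genes of lipolysis and the lipid droplet were also mostly lower. Of 18 tested, 7 fell and 1 rose, where 3.17% of all tested genes fell and 4.64% rose, and the median log2 fold change was −0.25. Plin1 encodes perilipin 1, the coat protein that protein kinase A phosphorylates. It had 446, 337 and 348 CPM in day0RT and 233, 263 and 318 CPM in day7CL (log2 fold change −0.52, standard error 0.11, adjusted p = 0.00144). Cavin1, which encodes a coat protein of caveolae, had 316, 283 and 238 CPM and 136, 147 and 223 CPM (log2 fold change −0.79, standard error 0.14, adjusted p = 8.7e-05). Plin4 and Cidec, 2 further droplet proteins, fell by 0.56 and 0.49 on the log2 scale. Pnpla2, the gene of the first lipase of triglyceride breakdown, fell by 0.44, Bscl2, which encodes seipin, by 0.43, and Aqp7, a glycerol channel, by 0.45. Cidea, which is counted in this list and in the thermogenic list, was the gene that rose.

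Of these 8 calls, that of Cavin1 alone held without each of the 6 mice. Plin1 had an adjusted p of 0.0528 without the first day0RT mouse and 0.101 without the first day7CL mouse, and that of Plin4 was 0.172 without the first day7CL mouse. That of Cidec was 0.195 without the first day7CL mouse, that of Pnpla2 was 0.166 without the first day0RT mouse and 0.279 without the first day7CL mouse, and that of Bscl2 was 0.179 without the third day0RT mouse and 0.279 without the first day7CL mouse. Aqp7 was lost at 0.0745 to 0.519 without the first, the second or the third day0RT or the first or the second day7CL mouse. The first day7CL mouse had the lowest level of Plin1 (233 CPM) and of Plin4 (292 CPM). Lipe, which encodes hormone-sensitive lipase, was not called (log2 fold change −0.31, adjusted p = 0.0743).

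In the pathway that CL acts on, an adenylyl cyclase gene had the smallest adjusted p. Of 51 tested genes of β-adrenergic and cyclic AMP signalling, 3 fell and 3 rose, with a median log2 fold change of −0.03. These 6 are 11.8% of the list, against the 7.81% called among all tested genes, and 4 of the 6 were also called with Adipocyte nuclei only. Adcy5, an adenylyl cyclase that makes cyclic AMP, had 460.2, 556 and 552 CPM in day0RT and 261, 289.9 and 302 CPM in day7CL. The 3 day7CL mice were close to each other and far below the day0RT mice (log2 fold change −0.90, standard error 0.12, adjusted p = 7.0e-08), and the call held without each of the 6 mice. Rapgef3, which encodes the cyclic AMP sensor Epac1, had 53.4, 86.1 and 87.9 CPM and 37.3, 42.3 and 40.5 CPM (log2 fold change −0.99, standard error 0.19, adjusted p = 1.6e-04; adjusted p = 0.0701 without the third day0RT mouse). A further cyclase, Adcy6, fell by 0.63 and another, Adcy9, rose by 0.51, but their adjusted p was 0.168 without the first day7CL mouse for the former and 0.0555 without the first day0RT mouse and 0.170 without the first day7CL mouse for the latter.

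The phosphodiesterases Pde4d and Pde8a, which break cyclic AMP down, rose by 0.28 and 0.40 on the log2 scale. Pde4d had an adjusted p of 0.0538 to 0.189 without the first, the second or the third day0RT or the first day7CL mouse, and that of Pde8a was 0.0644 to 0.295 without the first, the second or the third day0RT or the first or the third day7CL mouse. The receptor itself, Adrb3, had 214, 183 and 178 CPM in day0RT and 142, 169 and 179 CPM in day7CL. These ranges overlapped, and Adrb3 was not called (log2 fold change −0.27, standard error 0.13, adjusted p = 0.212). Prkaca, the catalytic subunit of protein kinase A, was not called either (log2 fold change −0.21, standard error 0.12, adjusted p = 0.331).

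Called genes of the thermogenic list were all higher. Of 25 tested genes, 6 rose and none fell, where 4.64% of all tested genes rose. A positive log2 fold change was seen in 22 of all 25, and the median was 0.32. Otop1, Cidea, Slc4a4, Pank1, Dio2, Acot11, Ucp1, Kcnk3, Pdk4 and Gk (as Gyk) were among the genes that the study named from these nuclei. All 6 called genes are among them, so this direction is not independent evidence either. Otop1, a proton channel gene typical of brown and beige fat, had 22.6, 17.9 and 23.4 CPM in day0RT and 56.4, 45.5 and 56.1 CPM in day7CL (log2 fold change 1.28, standard error 0.24, adjusted p = 1.3e-04). Dio2, which encodes the deiodinase that makes active thyroid hormone inside the cell, had 26.7, 14.3 and 19.9 CPM and 46.2, 36.0 and 65.5 CPM (log2 fold change 1.15, standard error 0.24, adjusted p = 0.00101). Pank1, which encodes the first enzyme of coenzyme A synthesis, had 107, 100.4 and 96.1 CPM and 158, 129 and 207 CPM (log2 fold change 0.68, standard error 0.15, adjusted p = 0.00112). In each of these 3 genes every day7CL mouse lay above every day0RT mouse, as in 12.3% of all tested genes, and each call held without any of the 6 mice.

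Acot11, Cidea and Slc4a4, a thioesterase, a lipid droplet protein and a bicarbonate transporter, rose by 0.61, 0.58 and 0.40. Acot11 had an adjusted p of 0.0528 without the first day0RT mouse and 0.0685 without the first day7CL mouse, that of Cidea was 0.0653 to 0.311 without the first, the second or the third day0RT or the first or the third day7CL mouse, and that of Slc4a4 was 0.0572 to 0.163 without the second or the third day0RT or the first or the third day7CL mouse. Ucp1, the uncoupling protein that defines the programme, had 8.22, 3.59 and 9.37 CPM in day0RT and 18.1, 14.8 and 12.5 CPM in day7CL. The groups did not overlap, but Ucp1, with 8 counts or fewer in each day0RT mouse, was not called (log2 fold change 1.03, standard error 0.43, adjusted p = 0.126). With Adipocyte nuclei only, the log2 fold change was 1.58 for Otop1, 1.20 for Dio2 and 0.64 for Pank1, each past the threshold.

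Among 27 coactivators and fate factors of brown and beige fat, 2 rose and none fell, which is 7.41% of the list, near the 7.81% called among all tested genes. The study had named Ppargc1a, Ppargc1b, Ppara, Esrra and Mef2d from these nuclei, so the direction of this list is not independent evidence. Ppargc1a, the gene of the coactivator PGC-1α, had 111, 64.6 and 94.9 CPM and 134, 121 and 126 CPM (log2 fold change 0.45, standard error 0.15, adjusted p = 0.0437). Mef2c, a MADS-box transcription factor, rose by 0.70 (adjusted p = 0.00290). Ppargc1a had an adjusted p of 0.169 to 0.291 without the second or the third day0RT or the first day7CL mouse, and that of Mef2c was 0.180 without the first day7CL mouse. Ppargc1b, the gene of the related coactivator PGC-1β, was not called (log2 fold change −0.00, standard error 0.11, adjusted p = 0.993). Of 20 adipogenic factors, 3 were called (15.0%, against 7.81% of all tested genes). Pparg, the nuclear receptor that directs adipocyte differentiation, rose from 497, 524 and 462 CPM to 664, 714 and 602 CPM (log2 fold change 0.44, standard error 0.10, adjusted p = 0.00250; adjusted p = 0.0537 without the third day0RT mouse). Cebpa fell by 0.59 and Nr3c1, the glucocorticoid receptor gene, rose by 0.37. Cebpa had an adjusted p of 0.277 without the first day7CL mouse, and that of Nr3c1 was 0.0559 to 0.214 without the second or the third day0RT or the first, the second or the third day7CL mouse.

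Genes of lipogenic enzymes rose where they were called, with 1 exception. Of 17 tested genes of de novo lipogenesis, 4 rose and 1 fell, where 4.64% of all tested genes rose and 3.17% fell, and the median log2 fold change was 0.26. The study had named Acaca, Acacb, Acly, Acss2, Fasn, Scd1, Elovl6 and Me1 from these nuclei, so the direction of this list is not independent evidence. Acly encodes ATP citrate lyase, which makes cytosolic acetyl-CoA. It had 98.6, 82.5 and 96.1 CPM in day0RT and 216, 170.4 and 122 CPM in day7CL (log2 fold change 0.94, standard error 0.19, adjusted p = 6.8e-04). Elovl6, which lengthens palmitate, had 259, 143 and 179 CPM and 420.1, 319.5 and 291 CPM (log2 fold change 0.85, standard error 0.15, adjusted p = 3.7e-05). Tkt encodes transketolase, an enzyme of the pentose phosphate pathway. Its values were tight in both groups, with 144, 133 and 144 CPM and 235, 242 and 226 CPM (log2 fold change 0.73, standard error 0.15, adjusted p = 7.3e-04). Acaca, which encodes acetyl-CoA carboxylase 1, rose by 0.44 (adjusted p = 0.0122).

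The calls of Elovl6 and Tkt held without each of the 6 mice. Acly had an adjusted p of 0.114 without the first day7CL mouse, and Acaca of 0.0704 without the third day0RT mouse and 0.172 without the first day7CL mouse. The first day7CL mouse had the highest level of both genes. Fasn, the gene of fatty acid synthase, had 129, 108 and 123 CPM and 143, 176 and 175 CPM. These values did not overlap, yet Fasn was not called (log2 fold change 0.39, standard error 0.17, adjusted p = 0.143). Scd1, the stearoyl-CoA desaturase gene, fell from 195, 240.3 and 281 CPM to 195, 132 and 182 CPM (log2 fold change −0.49, standard error 0.15, adjusted p = 0.0339), and the highest day7CL mouse was level with the lowest day0RT mouse. Its adjusted p was 0.0647 to 0.415 without the second or the third day0RT or the second day7CL mouse. Scd1 also counts among 17 elongases and desaturases, of which 6 were called (35.3%, against 7.81% of all tested genes). Of these, 3 rose (Elovl6, Elovl5 and Hsd17b12, all of fatty acid elongation) and 3 fell (the desaturase genes Scd1, Fads2 and Fads3). Elovl5 rose by 0.64 and had an adjusted p of 0.0558 without the third day0RT mouse. Hsd17b12 rose by 0.47, with an adjusted p of 0.0931 to 0.460 without the first or the third day0RT or the first day7CL mouse. Fads2 fell by 0.74, with an adjusted p of 0.0996 without the first day0RT mouse and 0.218 without the first day7CL mouse.

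Genes of the TCA cycle and of pyruvate dehydrogenase rose where they were called. Of 29 tested, 5 rose and none fell, where 4.64% of all tested genes rose, and the median log2 fold change was 0.26. Ogdh encodes the E1 subunit of 2-oxoglutarate dehydrogenase. It had 16.4, 17.9 and 9.37 CPM in day0RT and 51.0, 40.2 and 43.6 CPM in day7CL, and it had the largest log2 fold change of all members of the 19 pathway lists that were called (log2 fold change 1.86, standard error 0.27, adjusted p = 1.1e-06). Its day0RT values rest on few counts per mouse, and the 1 tested peak in the gene was not called (log2 fold change 2.31). Cs, the citrate synthase gene, had 152, 139.9 and 161 CPM and 201, 214 and 248 CPM (log2 fold change 0.49, standard error 0.12, adjusted p = 0.00635). Both calls held without each of the 6 mice. Suclg1 and Sucla2, subunits of succinyl-CoA synthetase, rose by 0.62 and 0.45. Suclg1 had an adjusted p of 0.104 without the third day0RT mouse and 0.170 without the first day7CL mouse, and that of Sucla2 was 0.0672 to 0.123 without the second or the third day0RT or the first or the third day7CL mouse. Pdk1, which switches pyruvate dehydrogenase off, rose by 0.89, with an adjusted p of 0.0651 to 0.498 without the first or the third day0RT or the first day7CL mouse. Pdk4, a kinase of the same action, was not called (log2 fold change 0.05, standard error 0.15, adjusted p = 0.905).

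Of 28 genes of mitochondrial biogenesis and respiration, 3 were called (10.7%, against 7.81% of all tested genes). Cox10, a heme A synthesis enzyme, rose from 88.3, 122 and 135 CPM to 214, 216 and 184 CPM (log2 fold change 0.82, standard error 0.13, adjusted p = 9.9e-06), a call that held without each mouse. Coq8a rose by 0.40 (adjusted p = 0.0714 to 0.169 without the second or the third day0RT or the third day7CL mouse), and Cox15 fell by 0.62 (adjusted p = 0.0871 to 0.386 without the second or the third day0RT or the first day7CL mouse). Of 23 genes of fatty acid oxidation, 1 was called (4.35%, below the 7.81% of all tested genes). This was Cpt1b, the muscle-type carnitine palmitoyltransferase, with 20.5, 14.3 and 15.2 CPM and 33.9, 29.6 and 45.2 CPM (log2 fold change 1.05, standard error 0.27, adjusted p = 0.00767; adjusted p = 0.133 without the third day0RT mouse). Of 19 glycolysis genes, 1 was called (5.26%, also below that share). Pkm, which encodes pyruvate kinase M, rose by 0.52 and the others were not called. Its adjusted p was 0.0600 to 0.124 without the second or the third day0RT or the first day7CL mouse, and 0.0588 with Adipocyte nuclei only. Pkm and Eno1 were among the glycolytic genes that the study had chosen. Eno1 had a log2 fold change of 0.11 (adjusted p = 0.734).

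Genes that bring fatty acids into the cell and esterify them went in both directions. Of 17 uptake genes, 3 fell and 1 rose, which is 23.5% of the list against 7.81% called among all tested genes. Angptl4, which encodes an inhibitor of lipoprotein lipase, had 251, 222 and 168 CPM in day0RT and 84.5, 95.2 and 176 CPM in day7CL. The third day7CL mouse overlapped with day0RT (log2 fold change −0.96, standard error 0.17, adjusted p = 3.7e-05), and the call held without each of the 6 mice. Fabp4, the adipocyte fatty acid binding protein gene, and Lrp1, a lipoprotein receptor gene, fell by 0.43 and 0.38, and the acyl-CoA synthetase gene Acsl5 rose by 0.68. Of 17 genes of triglyceride synthesis, Dgat1 and Pck1 fell by 0.71 and 0.68, and Gpd2 and Lpin2 rose by 0.59 and 0.49. These 4 are also 23.5% of their list. Dgat1 makes triglyceride from diacylglycerol, and Pck1 encodes an enzyme that supplies glycerol 3-phosphate. The other 7 calls were each lost without the first day7CL mouse, with adjusted p from 0.0527 (Dgat1) to 0.389 (Gpd2). Other mice ended some of them too. The adjusted p of Fabp4 was 0.0606 to 0.223 without the first or the second day0RT or the first or the second day7CL mouse, that of Lrp1 was 0.0512 to 0.244 without the third day0RT or the first or the second day7CL mouse, and that of Lpin2 was 0.0839 to 0.301 without the first, the second or the third day0RT or the first or the second day7CL mouse. That of Gpd2 was 0.0552 to 0.389 without the second or the third day0RT or the first day7CL mouse, and that of Acsl5 was 0.0589 without the second day0RT mouse and 0.211 without the first day7CL mouse.

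In the remaining lists the share of called genes varied. Of 23 insulin signalling genes, 5 were called (21.7%, against 7.81% of all tested genes). Tbc1d4, Rptor and Gsk3b rose by 0.41, 0.55 and 0.56, and Akt2 and Irs2 fell by 0.34 and 0.49. The adjusted p of Rptor was 0.232 without the first day7CL mouse, that of Tbc1d4 was 0.0608 without the first day0RT mouse and 0.0817 without the first day7CL mouse, and that of Irs2 was 0.127 without the first day0RT mouse and 0.0965 without the first day7CL mouse. That of Gsk3b was 0.0659 to 0.221 without the first, the second or the third day0RT or the first or the second day7CL mouse, and that of Akt2 was 0.0879 to 0.304 without the first, the second or the third day0RT or the first or the second day7CL mouse. Single genes were called among 18 angiogenic factors (Angpt2, log2 fold change 0.50), 20 clock genes (Bhlhe40, 0.74) and 21 inflammatory genes (Rela, −0.71). These are 5.56%, 5.00% and 4.76% of their lists, below the 7.81% called among all tested genes. Of 28 matrix and TGF-β genes, Tgfbr2 rose by 0.58 and Lama4 fell by 0.37, which is 7.14% of the list. The adjusted p of Angpt2 was 0.0773 to 0.418 without the first, the second or the third day0RT or the first day7CL mouse, that of Bhlhe40 was 0.0639 to 0.403 without the first, the second or the third day0RT or the first day7CL mouse, and that of Rela was 0.0521 to 0.290 without the first or the third day0RT or the first or the third day7CL mouse. That of Tgfbr2 was 0.0566 without the third day0RT mouse and 0.459 without the first day7CL mouse, and that of Lama4 was 0.0992 to 0.185 without the first day0RT or the first or the second day7CL mouse. Over all lists, 13 calls were lost with Adipocyte nuclei only, with adjusted p from 0.0507 (Pdk1) to 0.115 (Coq8a). The others were Akt2, Aqp7, Bhlhe40, Cox15, Gsk3b, Lama4, Lpin2, Pde4d, Pde8a, Pkm and Sncg, and all 13 kept their direction.

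**Figure D3:**
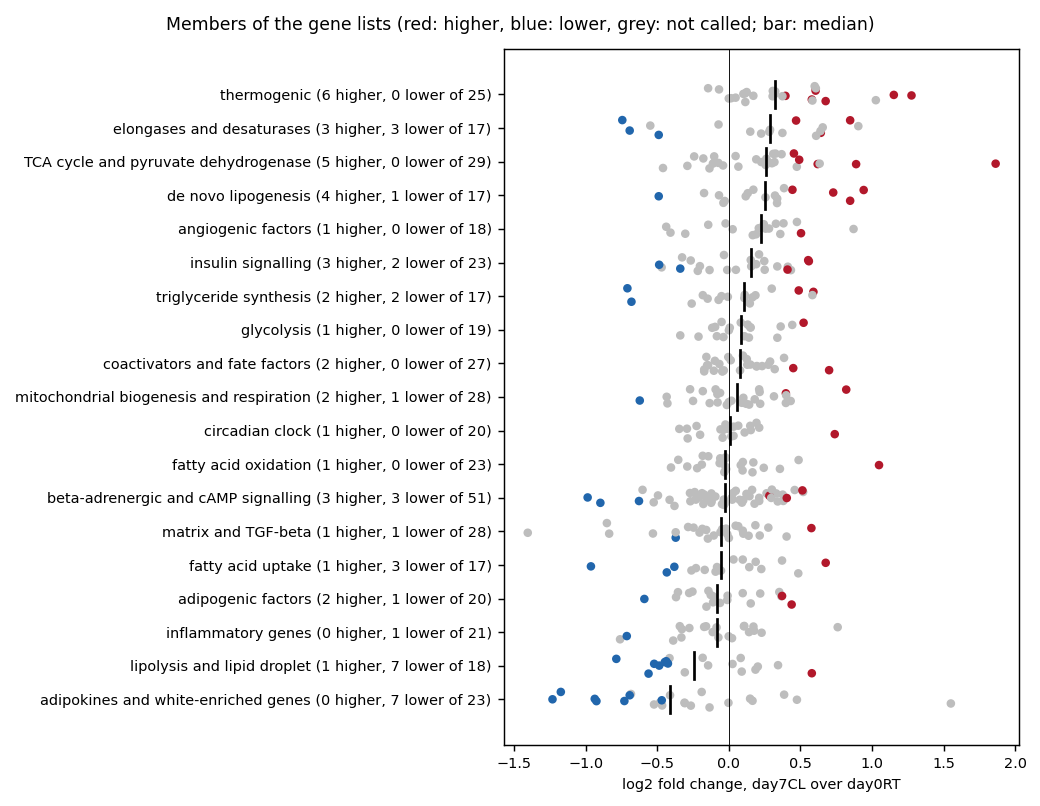
Log2 fold change (x axis) of every tested member of the 19 gene lists (y axis, ordered by median), red for higher, blue for lower and grey for not called, with the median of each list as a bar. Over all adipocyte nuclei, the thermogenic list has the highest median (0.32) and the adipokine and white-enriched list the lowest (−0.41).

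Outside the lists, the 12 genes with the largest rise and the 12 with the largest fall were taken by a fixed rule. It ranked called genes by the size of the change. The groups had to be free of overlap, with a mean of at least 20 counts over their mice. A gene could pass that filter through the day7CL mice, so low day0RT values among the largest rises follow in part from the choice. The largest rise was in Spock3, a testican proteoglycan gene, with 8.22, 10.8 and 8.20 CPM in day0RT and 36.6, 28.6 and 37.4 CPM in day7CL (log2 fold change 2.00, standard error 0.32, adjusted p = 1.1e-05). Rp1, a gene best known from photoreceptors, had 16.4, 17.9 and 15.2 CPM and 55.4, 57.1 and 57.7 CPM, with very little spread in either group (log2 fold change 1.80, standard error 0.25, adjusted p = 3.6e-07). Serpini1, which encodes neuroserpin, rose by 1.67, Hpgds, a prostaglandin D synthase gene, by 1.58, and Grm7, a glutamate receptor gene, by 1.53. Map3k15, Pzp, Dcdc2c, Odr4, Ccny and Osbp rose by 1.51 to 1.90, and Ogdh, described above, was the remaining gene of this group. Among these, Map3k15 had an adjusted p of 0.218 without the first day7CL mouse and Osbp of 0.167 without the third day0RT mouse and 0.253 without the first day7CL mouse. Ccny, Hpgds and Pzp had adjusted p of 0.109, 0.0865 and 0.0824 without the third day0RT mouse. In Rp1, Grm7, Hpgds, Ccny and Osbp no single peak in the gene had enough counts to be tested. The 1 tested peak in Serpini1 was not called, while 1 peak each was called in Spock3, Map3k15, Pzp, Dcdc2c and Odr4.

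The largest fall was in Ifi27l2a, an interferon-inducible gene, with 57.5, 39.4 and 36.3 CPM in day0RT and 13.7, 19.0 and 14.0 CPM in day7CL (log2 fold change −1.53, standard error 0.26, adjusted p = 3.0e-05). Rsph9, a radial spoke gene of cilia, had 105, 93.2 and 119.5 CPM and 38.7, 56.1 and 23.4 CPM (log2 fold change −1.45, standard error 0.17, adjusted p = 4.9e-09). Lbp, which encodes the lipopolysaccharide binding protein, fell by 1.18, Ccl11, which encodes eotaxin, by 1.17, and Kirrel, which encodes a cell adhesion protein, by 1.16. Elane, which fell by 1.15, Cfd and Med16 are neighbours on chromosome 10. Nnat, Fam83f, Reg4, Gjc1 and Endou completed the group, with falls of 1.12 to 1.23. Without the third day0RT mouse the adjusted p was 0.227 for Gjc1, 0.0558 for Lbp and 0.0565 for Fam83f. No single peak in Fam83f had enough counts to be tested, and the 1 tested peak in Gjc1 was not called.

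The called genes were also compared in length and in their place between beige and white nuclei. Neither is independent of the comparison. Gene values sum all peaks of a gene, so longer genes can hold more counts. The adipocyte sums held 20.0% beige nuclei in day7CL and 9.22% in day0RT on average, so the beige and white shares below in part follow that mix. The part of either in the calls was not tested. Higher genes were long, with a median length of 107264 bases and 13 peaks, against 15927 bases and 4 peaks for lower genes and 26770 bases and 4 peaks for all tested genes. In the 13 mice of the other 5 groups with at least 10 nuclei in both clusters, beige nuclei were set against white nuclei of the same mouse. Of the 669 higher genes, 477 (71.3%) were more open in beige than in white nuclei there, as were 127 of the 458 lower genes (27.7%) and 48.6% of all tested genes. Over all 14429 genes the Pearson correlation of the 2 log2 fold changes was 0.25, and with Adipocyte nuclei only it was 0.18 over 13508 genes. These are correlations across genes, which are not independent replicates, and the libraries share the same peaks.

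The same comparison was made peak by peak. Of 47835 tested peaks, 1101 (2.3%) were more open and 902 (1.89%) less open in day7CL, 4.19% in all. With Adipocyte nuclei only, 515 of 32541 were more open (1.58%) and 334 less open (1.03%). Gene starts, with 2000 bases on each side, held 32 of the higher peaks (2.91%), 263 of the lower peaks (29.2%) and 23.6% of all tested peaks. Higher peaks lay in introns in 46.9% and between genes in 43.3% of cases, and lower peaks in 32.9% and 30.7%. Of all tested peaks, 39.7% lay in introns and 30.8% between genes. The median GC content of the central 300 bases was 46.7% in higher peaks, 53.7% in lower peaks and 50.7% in all tested peaks. The share of all adipocyte counts that fell near gene starts moved the same way, with 30.5%, 28.2% and 27.6% in the day0RT mice and 24.2%, 25.5% and 25.6% in the day7CL mice, and its part in these differences was not tested. The median of the mean counts per peak was 14.2 in higher, 26.2 in lower and 16.2 in all tested peaks. An entry cannot exceed 1 in a nucleus, and nuclei of the first day7CL mouse were the deepest (median 6685.5 counts). The part of depth in where the called peaks lie was not tested. Without the first day7CL mouse, 135 peaks were more open and 82 less open, and without the first, the second or the third day0RT mouse 1054, 1017 and 543 peaks were called.

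Acly held the most marked single element among the lipogenic genes, the intron peak chr11:100504918-100506339, 22372 bases from the gene start. Its counts were 1, 1 and 7 nuclei in the day0RT mice and 154, 38 and 17 nuclei in the day7CL mice (log2 fold change 3.02, standard error 0.37, adjusted p = 1.0e-11). Relative to library size, the ratio of the summed counts was 8.30 (95% interval 4.29 to 18.4), an interval that covers counting error only. The difference held without each of the 6 mice, was 3.32 on the log2 scale in Adipocyte nuclei alone and 2.59 without the first day7CL mouse. The central 300 bases printed above hold a nuclear receptor match, an E-box and a glucocorticoid receptor match. Over all tested peaks these strings were in 20.9%, 6.43% and 22.6%, and the E-box was in 5.45% of the higher peaks. All 6 tested peaks of Acly had a positive log2 fold change, and 4 were called, none of which was the peak at the gene start. The other 3 calls were lost without the first day7CL mouse (adjusted p = 0.386, 0.609 and 0.410), and each also without 1 or 2 of the day0RT mice (adjusted p = 0.0535 to 0.281).

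At Pparg, 3 of 27 tested peaks rose and none fell, all far inside the gene. The peak of the printed sequence, 83986 bases from the start, had 1, 0 and 4 counts in day0RT and 58, 17 and 7 counts in day7CL (log2 fold change 2.49, standard error 0.53, adjusted p = 9.5e-04). Its adjusted p was 0.0641 without the first day7CL mouse. Of the other two, 1 was lost without that mouse or any day0RT mouse (adjusted p = 0.0533 to 0.344) and 1 had too few counts to be tested without the first day7CL mouse. Elovl6 had 17 tested peaks, all with a positive log2 fold change, of which 2 were called. Both calls were lost without the third day0RT mouse (adjusted p = 0.434 and 0.334) and without the first day7CL mouse (adjusted p = 0.339 and 0.0599). At Tkt, 10 of 10 tested peaks in the gene were positive, 3 of them called, and 3 further called peaks lay downstream. One of these, printed above with an NBRE match, had 2, 0 and 5 counts in day0RT and 63, 14 and 10 counts in day7CL (log2 fold change 2.11, standard error 0.47, adjusted p = 0.00212). All 6 Tkt calls were lost without the first day7CL mouse, with adjusted p from 0.127 for the printed peak to 0.550.

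At the genes Adipoq and Adcy5 several peaks fell. Adipoq had 6 tested peaks, all with a negative log2 fold change, and 4 of them fell, and a further called peak lay 13496 bases from the start. The intron peak chr16:23149037-23149346 had 21, 9 and 32 counts in day0RT and 31, 9 and 14 counts in day7CL, whose adipocytes held more counts in all. Scaled to library size this was 47.9, 34.3 and 40.1 CPM in day0RT and 11.5, 10.2 and 23.1 CPM in day7CL (log2 fold change −1.66, standard error 0.29, adjusted p = 1.5e-05). The downstream peak had 34.2, 15.2 and 33.9 CPM in day0RT and 8.50, 5.67 and 11.5 CPM in day7CL (log2 fold change −1.86, standard error 0.34, adjusted p = 1.0e-04). Both calls held without each of the 6 mice, while the other 3 calls, that of the peak at the gene start (−1.01) among them, were lost without the first day7CL mouse (adjusted p = 0.0751 to 0.468). Such a gap, with all day7CL mice below, occurred in 9.28% of tested peaks, and the opposite gap in 11.4%. The 2 printed Adipoq sequences hold nuclear receptor matches.

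Adcy5 had 8 lower and no higher peaks among 20 tested in the gene. No gene had more lower peaks, and the gene model Gm20388 had as many. The peak 2749 bases from the start, printed above with a C/EBP match, had 27.4, 11.4 and 28.8 CPM in day0RT and 5.54, 4.54 and 4.95 CPM in day7CL (log2 fold change −2.24, standard error 0.41, adjusted p = 8.5e-05), and the groups did not overlap. Another, at 21882 bases, had 27.4, 15.2 and 23.8 CPM in day0RT and 3.33, 11.3 and 1.65 CPM in day7CL (log2 fold change −2.22, standard error 0.46, adjusted p = 6.8e-04). Without the first day7CL mouse 3 of the 8 calls remained, the printed peak among them, and the other 5 had adjusted p of 0.101 to 0.374. Without the first, the second or the third day0RT mouse, 6, 6 and 4 remained, and 5 did with Adipocyte nuclei only. Of the 1103 genes with a called peak, 55 had 3 or more, of which 18 had only higher and 28 only lower peaks. Plin1, Angptl4 and Cavin1 had 4 lower peaks each, Dgat1, Pck1 and Plin4 had 3 lower peaks, Itpr1 had 7 higher peaks and Pank1 had 3. These counts rest on the deepest mouse, since none of the called peaks of these 8 genes was called without the first day7CL mouse. Without it, 108 genes had a called peak and 1 had 3 or more.

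**Figure D4:**
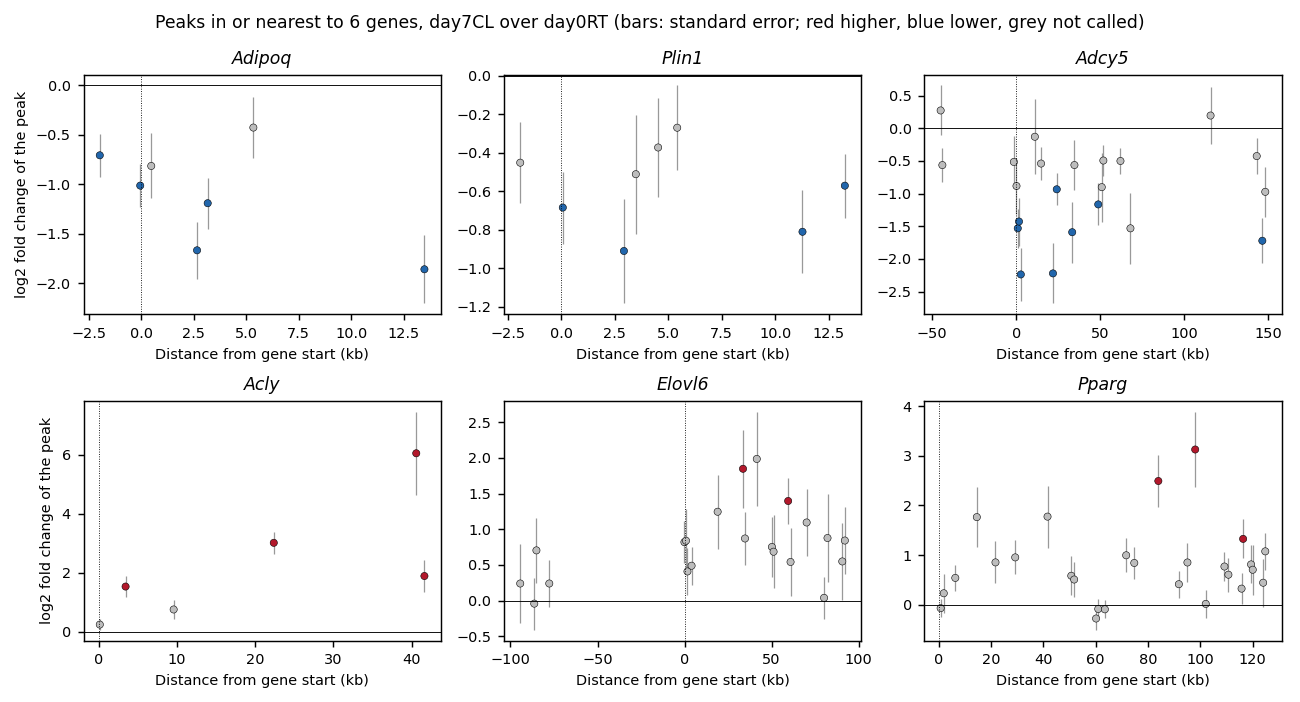
Log2 fold change of each tested peak in or nearest to 6 genes (y axis, bars are standard errors) against its distance from the gene start in kb (x axis, dotted line at the start). Called peaks of Adipoq, Plin1 and Adcy5 (blue) lie below 0 and called peaks of Acly, Elovl6 and Pparg (red) lie above 0.

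The 4 single peaks with the largest rise had 0 or 1 counts in each day0RT mouse. They were picked by the size of the rise among called peaks with a mean of at least 10 counts. They passed that filter through the day7CL mice, so few counts at day 0 follow from the choice. The peak chr3:34014542-34015115, between genes with Fxr1 as the nearest start, had 0 counts in all 3 day0RT mice and 41, 13 and 18 counts in the day7CL mice. Against a floor of 3 counts over the day0RT group, this was at least 8.57-fold higher (adjusted p = 2.5e-06). The peak chr16:55663889-55664531, which lies between genes with Nfkbiz as the nearest start, had 1, 0 and 0 counts in day0RT and 51, 15 and 11 counts in day7CL, a ratio of 27.5 (95% interval 4.79 to 1100.4). The Thg1l intron peak had 0, 0 and 1 counts in day0RT and 46, 13 and 7 counts in day7CL, a ratio of 23.6 (95% interval 4.09 to 945). The Pde1b intron peak, 15122 bases from the start of Ppp1r1a, had 0, 0 and 1 counts in day0RT and 39, 9 and 11 counts in day7CL, a ratio of 21.1 (95% interval 3.64 to 846). Each of these 4 calls held without any of the 6 mice, and each ratio is relative to library size with an interval for counting error only.

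Among the single peaks that fell most, the Scara5 intron peak, with 3 NFI matches, had 11.4, 45.7 and 32.6 CPM in day0RT and 4.44, 5.67 and 8.24 CPM in day7CL (log2 fold change −2.41, standard error 0.40, adjusted p = 6.5e-06). The Celsr2 intron peak had 29.7, 34.3 and 32.6 CPM in day0RT and 5.91, 13.6 and 6.59 CPM in day7CL (log2 fold change −2.03, standard error 0.35, adjusted p = 2.1e-05). Both calls, like that of the Adcy5 peak, held without each of the 6 mice.

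Letter strings of known factors were counted in the central 300 bases on both strands, with no test. C/EBP strings were in 28.9% of the higher peaks, 16.3% of the lower peaks and 10047 of all 47835 tested peaks. NFI strings were in 35.0%, 21.1% and 25.9%, and the nuclear receptor string in 28.2%, 20.1% and 20.9%. The NBRE, which contains that string, was in 4.63% of the higher, 2.66% of the lower and 2.81% of all peaks. MEF2 strings were rare, at 2.09%, 0.443% and 0.792%. The E-box was in 5.45%, 4.55% and 6.43%, and the glucocorticoid receptor string in 29.0%, 23.3% and 22.6%. AP-1 strings (TGANTCA) were in 11.2%, 10.2% and 9.45%. The string of estrogen-related receptors, TCAAGGTCA, was in 0.636%, 0.554% and 0.523%, and that of SREBP, TCACCCCAC, in 0.908%, 0.443% and 0.502%. Each of these last 2 rested on at most 10 called peaks in either direction. The cyclic AMP response element TGACGTCA, a palindrome, was in 1 of 1101 higher peaks (0.0908%), 5 of 902 lower peaks and 0.792% of all tested peaks. Since these shares move with the distance from gene starts, the same counts were made away from them: C/EBP strings were then in 28.8% of higher, 18.9% of lower and 24.7% of all peaks, and NFI strings in 35.4%, 25.8% and 30.3%. The nuclear receptor string was in 28.1%, 23.8% and 23.5%, the NBRE in 4.58%, 3.60% and 3.37% and MEF2 strings in 2.06%, 0.469% and 0.933%. The E-box was in 5.24%, 4.23% and 5.89%, and the glucocorticoid receptor string in 28.7%, 28.5% and 26.1%. AP-1 strings were in 11.1%, 12.4% and 11.0%, that of estrogen-related receptors in 0.561%, 0.469% and 0.558% and that of SREBP in 0.935%, 0.313% and 0.503%. The cyclic AMP response element was in 0.0935%, 0.313% and 0.356%, the higher and lower shares resting on 1 and 2 peaks. Base composition still differed away from gene starts. The median GC content there was 46.3% in higher, 51.3% in lower and 48.7% in all tested peaks, and its part in these shares was not tested. A match is a description of the letters and not evidence of binding.

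Day 7 of CL was next set against day 3. In the same model, 67 genes were lower and 48 higher at day 7 (0.464% and 0.333% of the genes tested, 0.797% in all). Lipogenic genes were among those that were lower. Scd1 had 409.8, 493 and 333 CPM in the day3CL mice and 195, 132 and 182 CPM in the day7CL mice (log2 fold change −1.26, standard error 0.13, adjusted p = 3.1e-11). Acaca fell from 813, 925 and 638 CPM to 549, 487 and 491 CPM (log2 fold change −0.63, standard error 0.10, adjusted p = 1.1e-04), and Acss2, Fads2, Acly and Scd2 fell by 0.75, 0.73, 0.57 and 0.52 on the log2 scale. Acly had 363, 301 and 186 CPM at day 3, so at day 7 it lay between that level and day 0.

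Thermogenic genes were among those that were higher at day 7 than at day 3. Dio2 had 33.6, 27.0 and 28.4 CPM in the day3CL mice and 46.2, 36.0 and 65.5 CPM in the day7CL mice (log2 fold change 0.74, standard error 0.16, adjusted p = 0.00723). Slc27a2, a very long chain acyl-CoA synthetase gene, was higher by 0.93, Ogdh by 0.66, Otop1 by 0.55, Gk, which encodes glycerol kinase, by 0.53 and Esrrg, which encodes an estrogen-related receptor, by 0.43. With Adipocyte nuclei only, Dio2 was the only one of these 6 genes still called (adjusted p = 0.0108), and the others had adjusted p from 0.101 (Esrrg) to 0.270 (Otop1). The share of beige nuclei among adipocytes ranged from 8.33% to 20.98% in the day3CL mice. The count of 115 called genes was 14 without the second day3CL mouse and 20 without the first day7CL mouse.

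Of the lower genes, Acly and Scd2 were not called with Adipocyte nuclei only (adjusted p = 0.0730 and 0.0749). Further list members were called against day 3. Slc2a4, Pcx, Agt and Ptchd4 fell by 0.51, 0.36, 0.99 and 0.60, and Fabp3 and Bhlhe40 were higher by 0.71 and 0.69. The dendritic cell marker Flt3 was also higher at day 7 (log2 fold change 0.87, adjusted p = 0.00985), with 15.7, 16.7 and 22.7 CPM and 35.6, 40.2 and 20.3 CPM, and the part of such cells in these differences was not tested. Each of these 7 calls was lost without the first day7CL mouse (adjusted p = 0.170 to 0.566) and without at least 1 day3CL mouse.

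Among the genes named first, the call of Scd1 held without each of the 6 mice. The adjusted p of Acaca was 0.0603 without the second day3CL mouse, and that of Acss2 was 0.0863 without the second day3CL mouse. That of Fads2 was 0.258 without the second day3CL mouse and 0.270 without the first day7CL mouse, and those of Acly and Scd2 were 0.0781 to 0.424 without the first or the second day3CL or the second or the third day7CL mouse, and 0.0674 to 0.638 without the second day3CL or the first, the second or the third day7CL mouse. Among the higher genes, Slc27a2 had an adjusted p of 0.210 without the first day7CL mouse, and Dio2 of 0.220 without the second day3CL mouse and 0.151 without the first day7CL mouse. Ogdh had 0.0600 to 0.496 without the second or the third day3CL or the first day7CL mouse, and Otop1 had 0.180 to 0.509 without the second or the third day3CL or the first day7CL mouse. Gk and Esrrg had 0.0533 to 0.567 without the second or the third day3CL or the first or the second day7CL mouse, and 0.125 without the third day3CL mouse and 0.177 without the first day7CL mouse.

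Against 7 days of cold, few genes differed: 13 were higher (0.0901%) and 3 lower (0.0208%) in day7CL than in day7C adipocytes. The share of beige nuclei among adipocytes was 32.5%, 29.7% and 26.1% in the day7C mice and 22.1%, 14.5% and 23.5% in the day7CL mice. Sums over both clusters therefore differ in that mix here too. With Adipocyte nuclei only, 11 genes were called, and 6 of the 16 calls remained. These 6 were Scd1, Me1, Pgm3, Rp1, Gpr183 and Serpini1. Of the 3 lower genes, Scd1 had 357, 260.3 and 275 CPM after cold and 195, 132 and 182 CPM after CL (log2 fold change −0.78, standard error 0.14, adjusted p = 0.00281), and the lipogenic gene Me1 and the hexosamine gene Pgm3 were lower by 0.50 and 0.64. Rp1 had the smallest adjusted p of the higher genes, with 28.4, 34.8 and 27.9 CPM after cold and 55.4, 57.1 and 57.7 CPM after CL (log2 fold change 0.92, standard error 0.17, adjusted p = 0.00546). No single peak in Rp1 had enough counts to be tested. Gpr183, a chemotactic receptor of immune cells, was higher by 1.67 and Serpini1 by 1.03. The count of 16 ranged from 1 (without the first day7C mouse) to 9 when single mice were left out. It was 7, 3 and 9 without the first, the second and the third day7CL mouse, and 9 without the second or the third day7C mouse. Scd1 had an adjusted p of 0.113 without the first day7C mouse and 0.0869 without the second day7CL mouse, and that of Gpr183 was 0.233 without the third day7C mouse. That of Rp1 was 0.0510 to 0.106 without the first or the third day7C or the first day7CL mouse, and that of Serpini1 was 0.106 to 0.156 without the first or the third day7C or the first day7CL mouse. Me1 and Pgm3 had 0.0510 to 0.689 without the first day7C or the first, the second or the third day7CL mouse, and 0.0657 to 0.476 without any 1 of the 6 mice. The CL and cold libraries also held separate sequences in the second barcode segment, so that index set and treatment cannot be told apart here either.

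**Figure D5:**
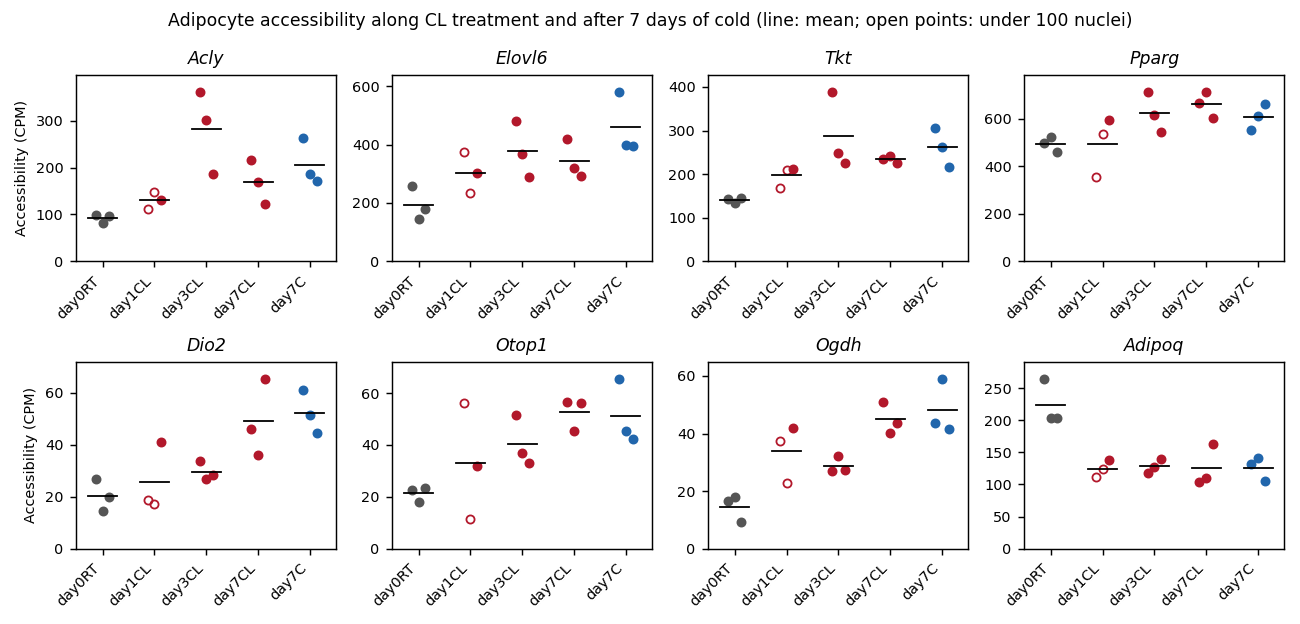
Accessibility in CPM (y axis) of 8 genes in the adipocytes of each mouse along CL treatment and after 7 days of cold (x axis), with group means as lines and mice with under 100 adipocyte nuclei as open points. The mean of Acly was highest at day 3 of CL, those of Dio2 and Ogdh were higher at day 7 than at day 3, and that of Adipoq was lower than at day0RT in every other group shown.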

How the data were processed

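Nuclei of whole inguinal fat pads were profiled by single-nucleus ATAC-seq. Per the labels and methods, the authors aligned reads to mm10 with Bowtie2, filtered them with SAMtools, called peaks with MACS2 and analysed nuclei with Signac. The deposited matrix of 189598 peaks and 32552 nuclei holds binary counts, 1 where a nucleus had reads in a peak. The lanes held all mice, so mouse, group and cluster came from the deposited annotation of the nuclei.

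Binary entries were summed per mouse over Adipocyte and Beige nuclei. Genes were the 21951 protein-coding genes of GENCODE vM21 (GRCm38), of which 17196 had a peak, and 3.43% of peaks counted for more than 1 gene. edgeR 4.0.16 (R 4.3.3) was fitted to all 21 mice of 7 groups, with TMM factors and filterByExpr (minimum count 10, minimum total 15). DESeq2 1.42.0 was an alternative. Tables were made with Python 3.11.15, numpy 2.4.6, pandas 2.3.3 and scipy 1.17.1. The fitting was tested on simulated counts. The edgeR p-values rest on the spread between mice within a group, 3 in each, estimated over all 7 groups. With only the 2 groups in the fit, 868 genes and 1018 peaks were called. Intervals cover counting error only.

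Named genes were called members of the gene lists, the defining genes of a list, and the 12 genes and 10 peaks that rose most, and as many that fell most, among called features whose groups did not overlap and whose mean over the 6 mice was at least 20 and 10 counts. Further uncalled genes (Lep, Lipe, Prkaca) were named after their values were seen. Sequences were shown for the first 4 such peaks in each direction and for called peaks at genes the text turns on. One peak that fell is not reported here. Members and lists were chosen with earlier results of these data known. Alternatives were another tool, scaling, filter, depth of nuclei, cluster, set of groups, threshold and peaks counted, and leaving out each mouse.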

Additional observations from a re-analysis of the deposited data

Results flagged for a closer look

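Adipocytes after 7 days of CL differed from those after 7 days of cold in 13 higher and 3 lower genes of 14429 tested, by edgeR's test of the difference between the 2 treatments. Against 3 days of CL, 48 genes were higher and 67 lower at day 7. These differences were picked out because the effect of treatment was tested to differ between groups; both share the day7CL mice.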

How the results depend on the processing

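The 1127 genes called between day7CL and day0RT became 234 with DESeq2 (which gave 6714 genes no adjusted p), 130 with promoter peaks alone, 433 at an adjusted p under 0.01, 77 with nuclei of 1000 to 4000 counts (chosen after seeing the data) and 16 with Beige nuclei only. Leaving out single mice gave 250 to 1289. The 2003 peaks became 11 with DESeq2, 849 with Adipocyte nuclei only, 835 without a filter on low counts, 1018 with only the 2 groups in the fit, 1184 with nuclei of at least 2000 counts, 637 at an adjusted p under 0.01 and 5 with nuclei of 1000 to 4000 counts. Leaving out single mice gave 217 to 2251 peaks. Of the called peaks, 55.0% were higher, against 77.2% without the filter and 9.09% of the 11 with DESeq2.

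Against 7 days of cold, DESeq2 called 0 genes (331 at an unadjusted p under 0.05, against 16 and 1231 with edgeR), and single mice left out gave 1 to 9. Against day 3 of CL, 115 genes became 41 with Adipocyte nuclei only, 2 with DESeq2 and 14 to 144 without single mice. The difference in beige share ran from 9.09 to 13.6 percentage points and that in adipocyte share from 8.02 to 12.2 without single mice.

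With the replicate number as a block, 909 genes and 1395 peaks were called against day0RT, 32 genes against day7C and 66 against day3CL. The deviations of same-numbered day7CL and day0RT mice correlated at −0.14, 0.04 and −0.11, and the main fit held no term for the number. Same-numbered mice shared 8 sequences of the fourth barcode segment, and mice of other numbers in the 2 groups shared 0. The paper states that its batches were run independently. Whether the number marks a batch was not stated, and the correlations cannot decide it. List calls lost with the block included Angpt2, Bhlhe40 (adjusted p = 0.104), Pdk1 (0.0902), Sncg (0.0874), Aqp7 (0.0787), Lpin2 (0.0698), Cox15 (0.0697) and Gsk3b (0.0616). Calls were also lost in the beige and adipogenic lists. With the block, 5 of 6 thermogenic calls remained, 1 of 2 of the coactivators and fate factors and 2 of 3 of the adipogenic factors.

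Some genes changed direction with Beige nuclei only, where the log2 fold change was 0.56 for Kirrel, −0.0715 for Acot11, −0.0582 for Ppargc1a, −0.22 for Slc4a4, −0.20 for Acaca, 0.0311 for Sncg, −0.0845 for Cpt1b, −0.14 for Cidea and 0.52 for Scd1. With promoter peaks alone, Acaca was at −0.57. The cause of these changes was not tested. Over all alternatives, values of single genes kept direction and call in 1035 cases, kept direction but lost the call in 433 and reversed in 10, and those of single peaks in 1308, 869 and 0. Depth limits single peaks, such as the Acly intron peak with 1 to 7 counts in a day0RT mouse.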
